A study of Mus musculus with 8 samples.

Results

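Macrophages of injured nerve were followed through 10 genes: the receptor Csf1r and its ligand Csf1, the chemokine receptors Ccr2 and Cx3cr1, the surface proteins Itgam, Cd14 and Ptprc, and the internal markers Cd68, Aif1 and Mpeg1. They were chosen as general markers of macrophages and monocytes and for their part in recruitment, and the array's platform annotation gave 20 probe sets for them. The 10 genes stand among 18193 genes with a probe set of their own, of which 12093 passed the filter on low signal. To pass, a gene needed a probe set brighter than the array median on 2 or more arrays, and the brightest such probe set represents it; 18 of the 20 probe sets met this. Each of the 10 passed, but Itgam did so only through the 4 arrays of cut nerve, so its difference is tied to the filter. The same holds for Csf3r, Ccl12 and Chil3 among the genes of the lists described below. Without a filter Itgam was called in the same comparisons.

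The study compared adult mice carrying a c-Jun mutation (labelled KO) with control mice (labelled CTRL in the titles and WT in the genotype field), 7 days after 1 sciatic nerve was cut. The groups were KO cut, CTRL cut, KO uncut and CTRL uncut, with 2 arrays each and 8 in all. Cut nerve means 10 mm of the distal stump, and uncut nerve means the uninjured nerve of the other side, so each uncut nerve came from an injured animal. Each array held total RNA of nerves pooled from 4 or 6 mice, and the design text calls the pair of a group independent. The labels name no strain and do not say in which cells the gene was removed. The tissue label reads Schwann cell, but whole nerve segments were taken, and every value is of a mixture of cells.

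After a nerve is cut, axons and myelin of the distal stump break down. Schwann cells, fibroblasts and resident macrophages release chemokines such as Ccl2, and monocytes that carry the receptor Ccr2 enter from the blood, become macrophages and clear the debris together with Schwann cells. Csf1r, which binds Csf1 and Il34, keeps most macrophages alive. Cx3cr1, the receptor of the membrane-bound chemokine Cx3cl1, is carried by resident macrophages and by patrolling monocytes.

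Values are log2 expression values, so that a difference of 1 is a 2-fold change, and they cannot be set against each other between genes. The median of an array was 6.59 at the lowest and 6.65 at the highest, and precision is limited by having 2 arrays a group. Arrays of 1 group correlated with r = 0.984 to 0.989 across genes, and cut with uncut arrays with 0.853 to 0.894. Jun itself stood at 10.39 and 10.80 in KO cut nerve, against 11.88 and 11.96 in CTRL cut nerve (log2 difference -1.33, SE 0.14, limma adjusted p = 0.0087; 0.063 and 0.057 without CTRL cut replicate 1 or 2). The muscle markers moved with the cut: 6 of 6 were called higher in cut nerve in either genotype, 3 in KO nerve without KO cut or uncut replicate 2, and 1 in CTRL nerve without CTRL cut replicate 2 or CTRL uncut replicate 1. Their summed linear signal was 74285 to 105396 in KO cut and 68039 to 83189 in CTRL cut nerve, against 24470 to 41684 in KO uncut and 23115 to 39211 in CTRL uncut nerve. The milk protein gene Csn2 set arrays apart, with 3.69 and 9.15 in KO cut nerve, against 11.47 and 7.03 in CTRL cut nerve, and with 13.01 and 10.33 in KO uncut nerve, against 3.50 and 4.14 in CTRL uncut nerve. The part of these differences in the values below was not tested.

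Most of the macrophage markers were higher in cut than in uncut nerve in both genotypes, Cd68 and Mpeg1 most of all. In KO nerve 7 of the 10 genes rose, none fell and 3 did not pass, and in CTRL nerve 8 rose, none fell and 2 did not pass (limma, Benjamini-Hochberg adjusted p under 0.05 over all genes tested). Among all genes tested 36% were called in KO nerve (18.1% higher, 17.8% lower) and 40.3% in CTRL nerve (22.8% higher, 17.5% lower). The median change of the 10 genes was 1.35 in KO nerve and 1.36 in CTRL nerve, beside medians over all genes tested of -0.0013 in KO nerve and 0.05 in CTRL nerve. For 7 genes (Cd68, Mpeg1, Aif1, Itgam, Ptprc, Cx3cr1 and Csf1r) all 4 cut arrays lay above all 4 uncut arrays, as they did for 28.2% of all genes tested. In whole nerve, more macrophages and more RNA per macrophage cannot be told apart.

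**Figure D1:**
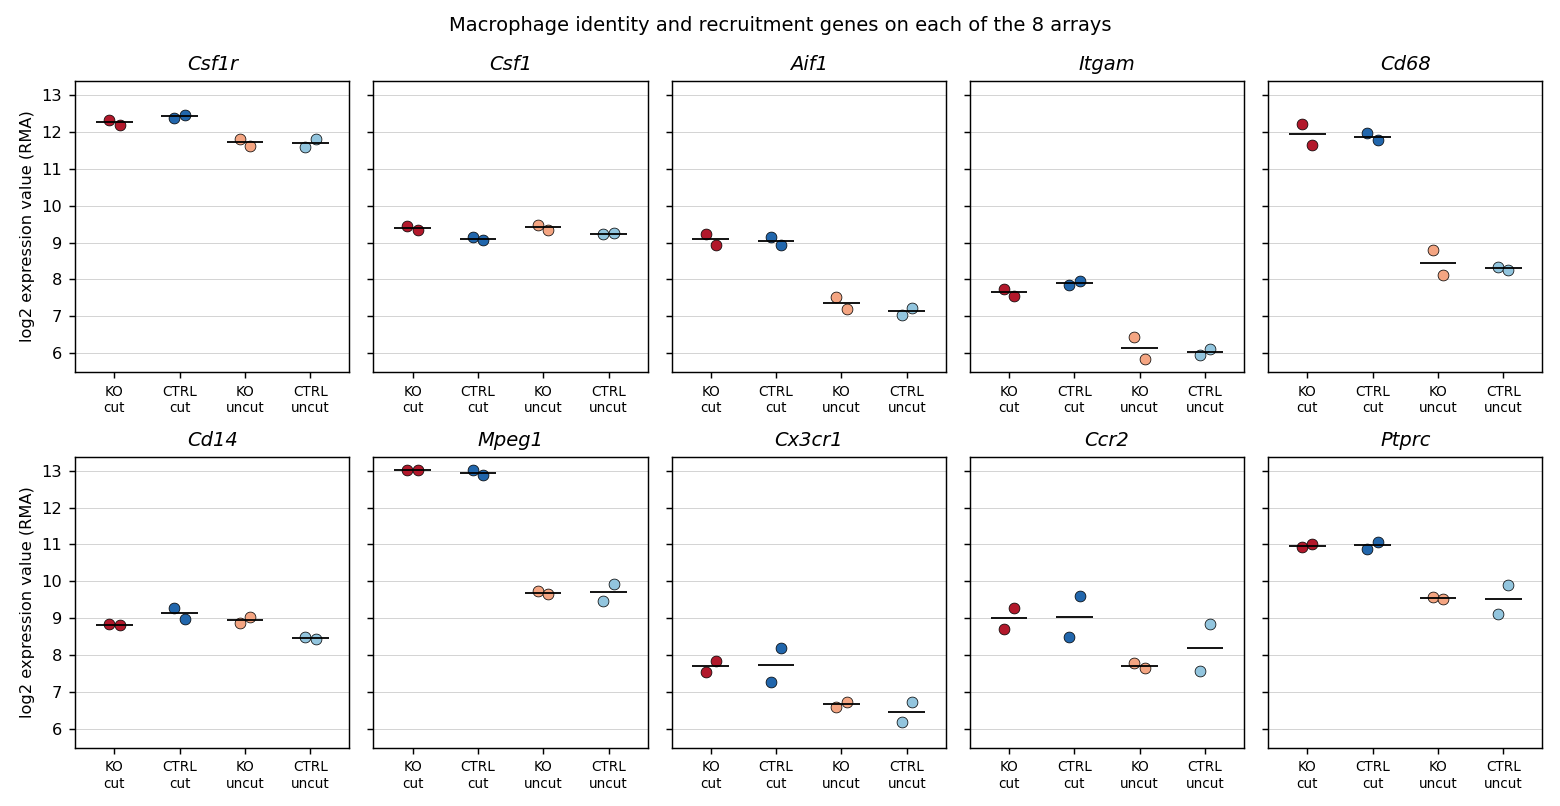
Log2 expression value (vertical axis) of the representing probe set of each gene on each array, by group; points are arrays and bars group means. Cd68 and Mpeg1 show the widest gaps between cut and uncut arrays (2.86 and 2.95), while the cut and uncut arrays of Csf1, Cd14 and Ccr2 overlap.

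Promoters are shown for Cd68, Itgam and Mpeg1, which rose in both genotypes, and for Csf1, which showed no call. Windows from the RefSeq table for GRCm38.p6 were read for 8 of the 10 genes, and not for Csf1r and Cd14. Each window is the 250 bases before a start, 5′ to 3′ on the strand of the gene. The searches were for GAGGAA, a core bound by PU.1 and related ETS factors, and for TGANTCA, the AP-1 motif that c-Jun and its partners bind, on both strands. Capitals mark the matches, with TTCCTC as the core read from the other strand. The windows are chr11:69666171-69666420 (minus strand) for Cd68, chr7:128062390-128062639 (plus strand) for Itgam, chr19:12460520-12460769 (plus strand) for Mpeg1 and chr3:107760470-107760719 (minus strand) for Csf1.
Cd68: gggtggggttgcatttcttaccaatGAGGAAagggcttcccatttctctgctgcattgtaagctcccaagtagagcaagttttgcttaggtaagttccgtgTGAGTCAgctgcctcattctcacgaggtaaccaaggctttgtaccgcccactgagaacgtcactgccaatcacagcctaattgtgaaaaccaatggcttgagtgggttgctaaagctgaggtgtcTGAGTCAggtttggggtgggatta
Itgam: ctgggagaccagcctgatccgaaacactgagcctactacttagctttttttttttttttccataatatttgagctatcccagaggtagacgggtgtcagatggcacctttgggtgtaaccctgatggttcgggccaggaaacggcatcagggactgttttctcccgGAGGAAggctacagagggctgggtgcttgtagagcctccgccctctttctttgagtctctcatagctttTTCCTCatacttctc
Mpeg1: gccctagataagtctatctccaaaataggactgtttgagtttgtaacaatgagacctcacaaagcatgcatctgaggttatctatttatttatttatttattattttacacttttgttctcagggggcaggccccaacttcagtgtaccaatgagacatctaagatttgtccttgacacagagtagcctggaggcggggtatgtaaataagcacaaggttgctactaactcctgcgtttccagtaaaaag
Csf1: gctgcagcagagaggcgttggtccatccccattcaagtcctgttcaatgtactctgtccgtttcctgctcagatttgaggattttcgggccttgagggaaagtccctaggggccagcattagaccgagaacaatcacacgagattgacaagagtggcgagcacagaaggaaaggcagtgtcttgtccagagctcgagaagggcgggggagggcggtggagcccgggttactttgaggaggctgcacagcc
A GAGGAA core stood in the windows of Aif1, Itgam, Cd68 and Ptprc, 4 of 8 genes, and in 23.3% of all 32851 windows of this length. TGANTCA stood in that of Cd68 alone, in 2 places, and in 6.75% of all windows. The C/EBP pattern TTGCNNAA, not in capitals here, was found in Cd68 only and in 9.56% of all windows. A match describes these letters and no binding was measured. Cd68, the gene with AP-1 matches, differed by 0.06 between KO and CTRL cut nerve (interval 0.70- to 1.56-fold, KO over CTRL). Whether c-Jun acts on Cd68 through these matches was not tested. The labels do not say in which cells Jun was removed, and the values are of a mixture of cells.

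Cd68 and Mpeg1, both proteins of the macrophage interior, moved most. Cd68, a glycoprotein of lysosomes, stood at 12.21 and 11.65 in KO cut nerve and at 11.97 and 11.77 in CTRL cut nerve, against 8.79 and 8.11 in KO uncut nerve and 8.34 and 8.26 in CTRL uncut nerve. The lowest cut array lay 2.86 above the highest uncut array. Its log2 change was 3.48 in KO nerve (SE 0.25, 11.1-fold, 95% interval 7.48 to 16.6, limma adjusted p = 5.6e-05) and 3.57 in CTRL nerve (SE 0.25, 11.8-fold, interval 7.95 to 17.6, limma adjusted p = 4.1e-05).

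Mpeg1, a pore-forming protein that macrophages direct at ingested bacteria, had 13.01 and 13.02 in KO cut nerve and 13.01 and 12.87 in CTRL cut nerve, against 9.74 and 9.65 in KO uncut nerve and 9.48 and 9.92 in CTRL uncut nerve. The 4 cut arrays lay nearer to each other than the pair of uncut CTRL arrays, and 2.95 above the highest uncut array. The change was 3.32 in KO nerve (SE 0.15, 9.99-fold, limma adjusted p = 8.5e-06) and 3.24 in CTRL nerve (SE 0.15, 9.45-fold, limma adjusted p = 7.5e-06). Ranked by rise among all 12093 genes, Cd68 was number 41 in KO nerve and 45 in CTRL nerve, and Mpeg1 was number 55 in KO nerve and 65 in CTRL nerve.

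Aif1, the calcium-binding protein known as Iba1 that bundles actin, had 9.24 and 8.94 in KO cut nerve and 9.15 and 8.94 in CTRL cut nerve. The uncut values were 7.53 and 7.21 in KO nerve and 7.05 and 7.24 in CTRL nerve. Again no cut array overlapped an uncut array, and in cut nerve the genotypes' means differed by less than the arrays of either group. Aif1 rose by 1.72 in KO nerve (3.30-fold, limma adjusted p = 0.00018) and by 1.90 in CTRL nerve (3.72-fold, limma adjusted p = 9.5e-05).

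The genes of surface proteins among the 10 rose less than Cd68 and Mpeg1. In CTRL nerve Itgam rose nearly as much as Aif1 (1.86 against 1.90). Surface genes outside the 10, such as Itgb2 and Itgax below, rose more than Aif1. Ptprc, the phosphatase CD45 found on all leukocytes, had 10.93 and 11.01 in KO cut nerve and 10.88 and 11.07 in CTRL cut nerve, against 9.57 and 9.51 in KO uncut nerve and 9.12 and 9.91 in CTRL uncut nerve. The uncut CTRL arrays lay further apart than any other pair. The change was 1.43 in KO nerve (SE 0.23, limma adjusted p = 0.0025) and 1.46 in CTRL nerve (SE 0.23, limma adjusted p = 0.0019). A second Ptprc probe set stayed between 4.42 and 4.88 on every array, below the array medians, and was left out by the filter.

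Itgam, the alpha chain of the integrin Mac-1 on macrophages, monocytes and neutrophils, had 7.74 and 7.56 in KO cut nerve and 7.84 and 7.95 in CTRL cut nerve, against 6.45 and 5.85 in KO uncut nerve and 5.94 and 6.12 in CTRL uncut nerve. The cut arrays lay 1.10 above the uncut arrays at the nearest. It rose 2.82-fold in KO nerve (limma adjusted p = 0.00088) and 3.63-fold in CTRL nerve (limma adjusted p = 0.00025). Of 7 integrin and adhesion partners 3 rose in KO nerve and 6 in CTRL nerve, and none fell in either. By limma 0 of the 7 were called between genotypes in cut nerve, and 0 for the interaction. Itga4, called in CTRL nerve only, rose there by 0.73 and changed by 0.51 in KO nerve. Its call was lost without CTRL cut replicate 1 (0.46) or CTRL uncut replicate 1 (0.76) or 2 (0.70). Itgal, also called in CTRL nerve only (0.76), lost its call without CTRL cut replicate 2 (0.65) or CTRL uncut replicate 2 (0.75). Icam1, called in CTRL nerve only (0.44), kept its call with any 1 array left out. On the log2 scale Itgb2, the beta chain that pairs with Itgam, rose by 1.99 in KO and 2.36 in CTRL nerve. Itgax, the alpha chain known as CD11c, rose by 2.19 in KO and 2.40 in CTRL nerve, and Selplg, the selectin ligand by which leukocytes roll on vessel walls, by 1.15 in KO and 1.09 in CTRL nerve.

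Cd14 was the exception among the surface markers. This co-receptor for bacterial lipopolysaccharide had 8.85 and 8.81 in KO cut nerve against 8.87 and 9.03 in KO uncut nerve, and 9.29 and 8.98 in CTRL cut nerve against 8.48 and 8.44 in CTRL uncut nerve. Both cut arrays lay below both uncut arrays in KO mice and above them in CTRL mice. The change of Cd14 in KO nerve was -0.12 (95% interval -0.41 to 0.17, limma adjusted p = 0.50), while it rose by 0.67 in CTRL nerve (SE 0.13, limma adjusted p = 0.0043). The difference between these changes, tested as the genotype by injury interaction, was -0.79 (SE 0.18, 95% interval -1.20 to -0.38). It did not pass over all genes (limma adjusted p = 0.22, unadjusted p = 0.0024). KO minus CTRL was -0.31 in cut nerve and 0.49 in uncut nerve. Both KO uncut arrays also had high Csn2 signal, whose part in the Cd14 value was not tested. The genes that work with Cd14 changed in either genotype: of Tlr4, Ly96, Lbp, Tlr2 and Myd88 all 5 rose in KO nerve and all 5 in CTRL nerve. With 1 array left out the count was as low as 1 in KO nerve (without KO cut replicate 1) and 2 in CTRL nerve (without CTRL uncut replicate 2). The receptor Tlr4 rose by 0.74 in KO and 0.68 in CTRL nerve, and Ly96, the MD-2 protein that binds lipopolysaccharide on Tlr4, by 0.66 in KO and 0.75 in CTRL nerve.

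**Figure D2:**
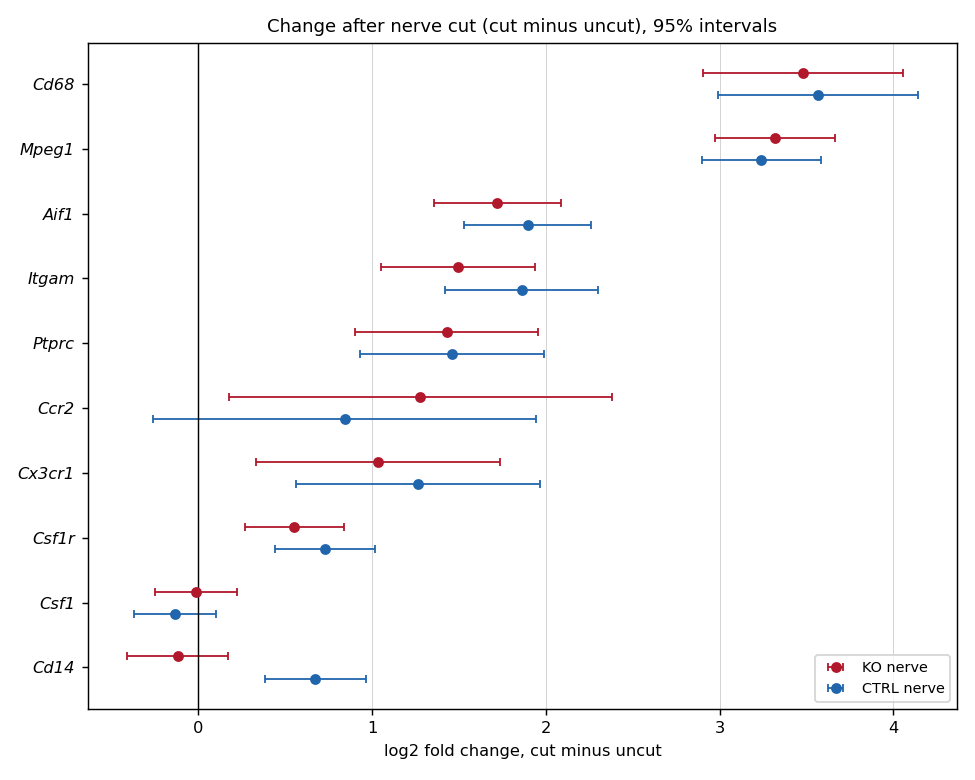
Log2 fold change after the cut (horizontal axis, cut minus uncut) of each gene in KO nerve (upper point of a pair) and CTRL nerve (lower point); bars are 95% intervals of the limma fit. The paired intervals overlap for every gene except Cd14, and those of Csf1 include 0 in both genotypes.

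The growth factor receptor rose modestly and its ligand was not called. Csf1r had 12.33 and 12.20 in KO cut nerve and 12.38 and 12.47 in CTRL cut nerve, against 11.81 and 11.62 in KO uncut nerve and 11.58 and 11.81 in CTRL uncut nerve. No cut array overlapped an uncut array, but the gap between them was only 0.39. The change was 0.55 in KO nerve (1.47-fold, limma adjusted p = 0.011) and 0.73 in CTRL nerve (1.66-fold, limma adjusted p = 0.0028). In KO nerve the call was lost without KO cut replicate 1 (0.49, adjusted p = 0.057) or KO uncut replicate 2 (0.45, adjusted p = 0.068). All 3 Csf1r probe sets were called when tested as units, with 0.55, 0.68 and 0.56 in KO nerve and 0.73, 0.88 and 0.85 in CTRL nerve.

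Csf1, made by Schwann cells, fibroblasts and endothelial cells among others, showed no call after the cut. It had 9.44 and 9.34 in KO cut nerve and 9.15 and 9.06 in CTRL cut nerve, against 9.49 and 9.33 in KO uncut nerve and 9.24 and 9.25 in CTRL uncut nerve. The change was -0.01 in KO nerve (95% interval -0.25 to 0.22) and -0.14 in CTRL nerve (interval -0.37 to 0.10), so the intervals end at 1.17-fold in KO nerve and 1.07-fold in CTRL nerve. The other 3 Csf1 probe sets changed by -0.15 to 0.09 in KO nerve and by -0.12 to 0.05 in CTRL nerve. Il34, the other ligand of Csf1r, did not pass either (-0.22 in KO nerve, 0.11 in CTRL nerve). Receptor chains for related factors rose in both genotypes. Csf2ra rose by 1.33 in KO and 1.27 in CTRL nerve, Csf2rb by 1.05 in KO and 1.33 in CTRL nerve, and Csf3r by 1.43 in KO and 1.66 in CTRL nerve. Csf2 and Csf3 themselves did not pass the signal filter.

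Both chemokine receptors varied widely between replicate arrays. Cx3cr1 had 7.55 and 7.84 in KO cut nerve and 7.26 and 8.20 in CTRL cut nerve, against 6.60 and 6.73 in KO uncut nerve and 6.19 and 6.74 in CTRL uncut nerve. No cut array overlapped an uncut array, and the CTRL cut arrays lay further apart than those of any other group. It rose by 1.03 in KO nerve (SE 0.30, limma adjusted p = 0.031) and by 1.27 in CTRL nerve (SE 0.30, limma adjusted p = 0.013). The call in KO nerve was lost on leaving out any 1 of the 4 KO arrays (0.89 to 1.18, adjusted p = 0.057 to 0.14), and that in CTRL nerve without CTRL uncut replicate 1 (0.99, adjusted p = 0.080). With 1 array left out the CTRL value ran from 0.80 (without CTRL cut replicate 2) to 1.73 (without CTRL cut replicate 1). A second Cx3cr1 probe set lay between 4.43 and 5.70, below the median of every array.

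Ccr2, the receptor by which inflammatory monocytes follow Ccl2, had 8.70 and 9.29 in KO cut nerve and 8.48 and 9.60 in CTRL cut nerve, against 7.80 and 7.64 in KO uncut nerve and 7.56 and 8.85 in CTRL uncut nerve. The groups did not overlap in KO mice, whereas CTRL uncut replicate 2 lay above CTRL cut replicate 1. The change was 1.28 in KO nerve (SE 0.47, limma adjusted p = 0.071) and 0.84 in CTRL nerve (SE 0.47, limma adjusted p = 0.19), so neither passed. In CTRL nerve 1 array decides the call: the value was 1.49 without CTRL uncut replicate 2 (adjusted p = 0.049), and 0.20 without CTRL uncut replicate 1 or 0.28 without CTRL cut replicate 2 (adjusted p = 0.78 and 0.70). In KO nerve it was called with the replicate number as a block (adjusted p = 0.019) or on leaving out any 1 of the 4 CTRL arrays (adjusted p = 0.037 to 0.049). A second Ccr2 probe set also had CTRL pairs further apart than the KO pairs, at 7.99 and 8.40 in KO cut nerve and 7.60 and 9.07 in CTRL cut nerve, against 6.87 and 6.72 in KO uncut nerve and 6.78 and 7.67 in CTRL uncut nerve. It changed by 1.40 in KO nerve and by 1.11 in CTRL nerve. Another changed by 0.68 in KO nerve and by 0.57 in CTRL nerve, with CTRL pairs no further apart than the KO pairs, and the fourth changed the other way (-0.18 in KO nerve, -0.21 in CTRL nerve). None of the 4 was called when probe sets were tested as units.

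**Figure D3:**
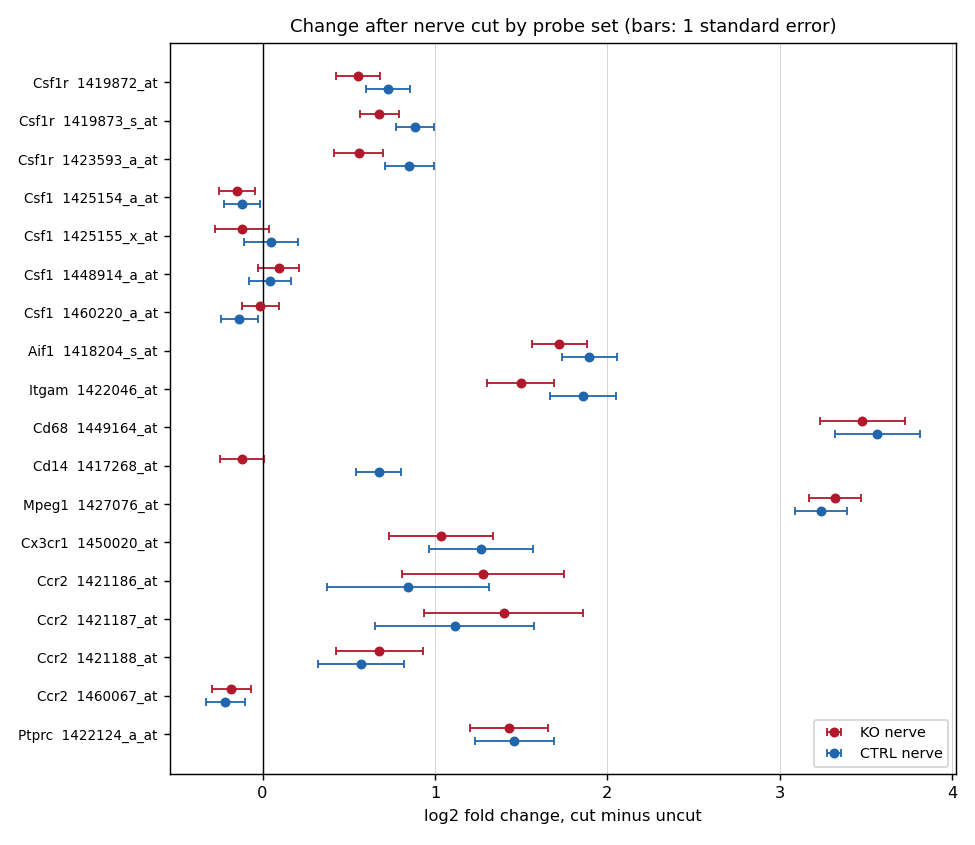
Log2 fold change after the cut (horizontal axis) for the 18 probe sets of the 10 genes that passed the filter, in KO nerve (upper point) and CTRL nerve (lower point), tested as separate units; bars are 1 standard error. The 3 Csf1r probe sets lie together and the 4 Csf1 probe sets near 0, while 1 of the 4 Ccr2 probe sets lies on the other side of 0.

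None of the 10 genes was called between the genotypes. In cut nerve the KO minus CTRL difference ran from -0.31 for Cd14 to 0.28 for Csf1, with a median of -0.02. By limma 0 of 10 were called higher and 0 lower, where 1.09% of all genes tested were called, 0.38% higher and 0.711% lower. At an unadjusted limma p under 0.05 there were 2 of the 10, Csf1 and Cd14, and 1041 of all 12093 genes. The 95% intervals bounded the difference at 0.83- to 1.34-fold for Mpeg1, 0.80- to 1.33-fold for Aif1, 0.70- to 1.56-fold for Cd68, 0.69- to 1.44-fold for Ptprc and 0.74- to 1.10-fold for Csf1r, KO over CTRL. They ran from 0.62 to 1.15 for Itgam, from 0.66 to 0.99 for Cd14, from 0.60 to 1.59 for Cx3cr1 and from 0.45 to 2.08 for Ccr2, so that a 2-fold difference of Ccr2 either way lies within its interval. Without both cut arrays of higher Csn2 signal (KO cut replicate 2 and CTRL cut replicate 1) the differences were -0.90 for Ccr2, -0.65 for Cx3cr1, 0.45 for Cd68 and 0.30 for Aif1, and none passed. Both KO cut arrays lay above both CTRL cut arrays for Csf1 and Mpeg1, and below them for Csf1r, Itgam and Cd14. Such separation of 2 arrays from 2 was seen for 14.5% (above) and 20.1% (below) of all genes tested.

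Of the 10 genes Csf1 had the highest value of KO over CTRL in cut nerve, 0.28 (SE 0.10, 95% interval 0.05 to 0.52, limma adjusted p = 0.43). Its 4 probe sets did not agree on the size, with 0.28, 0.22, 0.02 and 0.02. In uncut nerve Csf1 also stood higher in KO than in CTRL on both arrays, by 0.16, which was not called. Il34 stood at 8.30 and 7.93 in KO cut nerve, against 8.67 and 8.18 in CTRL cut nerve (-0.31, limma adjusted p = 0.85).

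In uncut nerve 0 of 10 genes were called between genotypes, as were 0% of all genes tested. At an unadjusted p under 0.05 there was 1 of the 10, Cd14 (0.49, SE 0.13), and 322 of all genes. Differences ran from -0.48 for Ccr2, which rests on CTRL uncut replicate 2 (0.16 without it), to 0.49 for Cd14. Both KO uncut arrays lay above both CTRL uncut arrays for Cd14 and Csf1, as for 17.9% of all genes tested, and below them for none of the 10, against 9.25%. For the interaction 0 of 10 were called by limma, against 0.165% of all genes tested (0.0662% higher, 0.0992% lower). Its unadjusted limma p was under 0.05 for 1 of the 10, Cd14, and for 731 of all 12093 genes. The comparisons use the same 8 arrays and are not independent of each other.

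**Figure D4:**
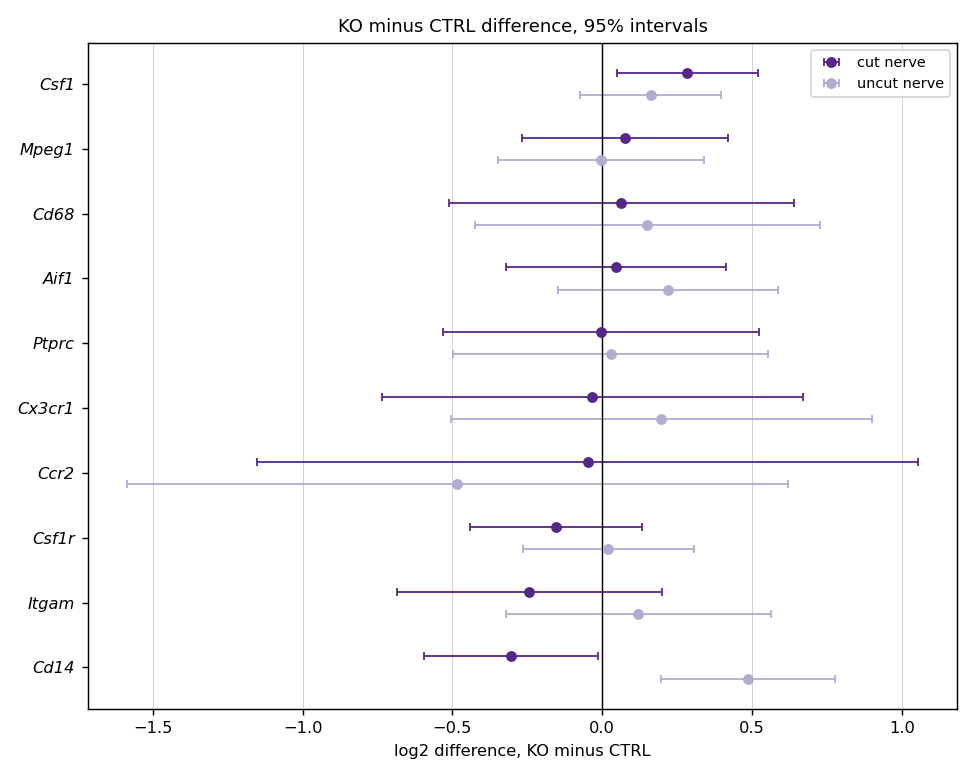
Log2 difference KO minus CTRL (horizontal axis) of each gene in cut nerve (upper, dark point) and uncut nerve (lower, light point); bars are 95% intervals. Most intervals include 0, those of Cd14 lie on opposite sides of it in cut and uncut nerve, and Ccr2 has the widest intervals.

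Chemokines that guide monocytes rose as well. Ccl8 rose by 3.38 in KO and 3.96 in CTRL nerve, and Ccl2, the main ligand of Ccr2, by 1.82 in KO and 2.19 in CTRL nerve. The other Ccr2 ligands Ccl12 and Ccl7 rose by 0.94 and 1.18 in KO nerve and by 1.86 and 1.15 in CTRL nerve. Cx3cl1, the ligand of Cx3cr1, changed by 0.16 in KO nerve (limma adjusted p = 0.42) and rose by 0.43 in CTRL nerve (limma adjusted p = 0.044, lost without any 1 of the CTRL arrays, at 0.057 to 0.20). The rise of Ccl12 in KO nerve was lost without KO cut replicate 1 (0.60) or KO uncut replicate 1 (0.63). The count was 4 of 5 higher in KO nerve and 5 of 5 in CTRL nerve, and no difference between the genotypes' changes passed (limma adjusted p from 0.78 for Ccl12 upward). In cut nerve Ccl12 stood at 7.27 and 6.58 in KO, against 7.71 and 7.59 in CTRL (-0.73, limma adjusted p = 0.46), and Ccl8 at 12.13 and 11.92 in KO, against 12.59 and 12.57 in CTRL (-0.55, limma adjusted p = 0.55). For Ccl12, Ccl8 and Ccl2 (9.23 and 9.06 in KO, against 9.46 and 9.32 in CTRL) both KO cut arrays lay below both CTRL cut arrays, as they did for 20.1% of all genes tested. None of these differences passed, and none of the 5 was called between genotypes in cut nerve. At an unadjusted limma p under 0.05 there were 2 of the 5, and 1041 of all 12093 genes.

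**Figure D5:**
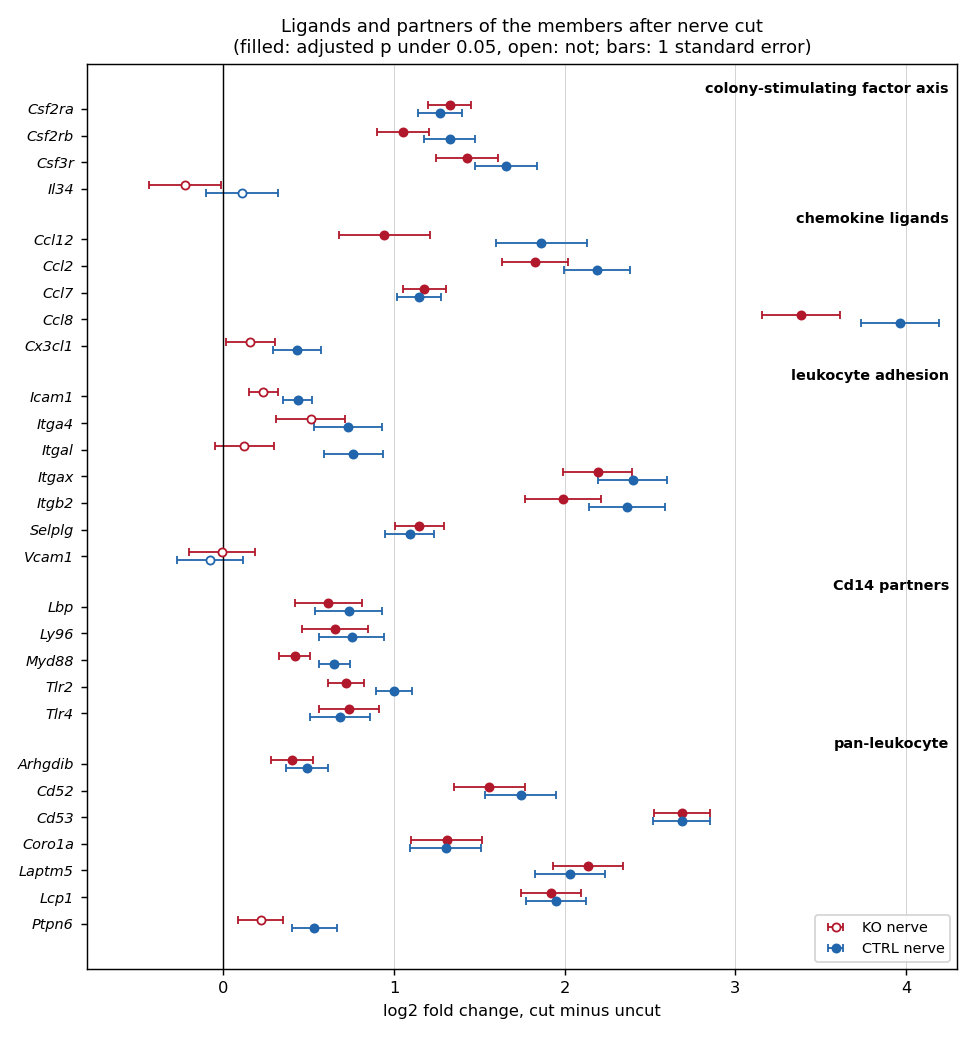
Log2 fold change after the cut (horizontal axis) of ligands, adhesion partners, Cd14 partners and pan-leukocyte genes in KO nerve (upper point) and CTRL nerve (lower point); filled points passed the test, open points did not, and bars are 1 standard error. Ccl8 moves most, and Il34 and Vcam1 lie near 0.

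Further macrophage genes were read beside the 10, from a list chosen with earlier results of these data known, so they are no check of the name. Of 20 further macrophage genes that passed the filter 17 rose and none fell in KO nerve (median 1.88). In CTRL nerve 17 rose and 1 fell (median 1.92). Cd163 changed by -0.50 in KO nerve and by -0.46 in CTRL nerve, and neither was called. Mrc1, 1 of the 17 in KO nerve, rose there by 0.35. That call was lost without any 1 of the CTRL arrays. It was also lost without KO cut replicate 1 (0.34) or 2 (0.36), or KO uncut replicate 2 (0.23). None of the 20 was called between genotypes in cut nerve. At an unadjusted limma p under 0.05 there was 1 of the 20, Fcgr2b at -0.45, and 1041 of all 12093 genes. The galectin Lgals3 rose by 3.09 in KO and 3.27 in CTRL nerve, Ms4a7 by 3.51 in KO and 3.33 in CTRL nerve, and the lysosomal protease Ctss by 2.86 in KO and 2.68 in CTRL nerve. Adgre1, which encodes the F4/80 antigen, stood at 10.22 and 10.02 in KO cut nerve and at 10.08 and 10.16 in CTRL cut nerve, against 8.52 and 8.03 in KO uncut nerve and 8.23 and 8.69 in CTRL uncut nerve. Spi1, the transcription factor PU.1 of myeloid cells, rose by 1.16 in KO and 1.23 in CTRL nerve. The gene that fell was Lyve1, a hyaluronan receptor, which changed by -0.84 in KO nerve (limma adjusted p = 0.086) and fell by 1.05 on the log2 scale in CTRL nerve (limma adjusted p = 0.040). Its call was lost without any 1 of the CTRL arrays. Of 7 pan-leukocyte genes 6 rose in KO nerve and 7 in CTRL nerve, with the membrane protein Cd53 up by 2.69 in KO and 2.68 in CTRL nerve.

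Several of the 10 genes are shared with other leukocytes. Of 10 neutrophil genes only S100a8, S100a9 and Ltf passed the filter and none was called in either genotype (limma, 0 at an unadjusted p under 0.05). Their summed linear signal was 429 to 454 in KO cut and 452 to 506 in CTRL cut nerve, against 388 to 418 in KO uncut and 380 to 1566 in CTRL uncut nerve. The top value came from CTRL uncut replicate 1, where S100a8 stood at 9.60, against 6.46 to 8.13 on the other arrays. Of 10 lymphocyte genes Cd3e and Nkg7 passed the filter and neither was called (limma, 1 at an unadjusted p under 0.05, Nkg7 in CTRL nerve), with sums of 220 to 222 in KO cut and 216 to 247 in CTRL cut nerve, against 203 to 229 in KO uncut and 192 to 203 in CTRL uncut nerve. Of 4 monocyte genes kept, Plac8 rose by 1.33 in KO and 1.72 in CTRL nerve, and Chil3 was called in CTRL nerve, but in only 1 of 8 fits with 1 array left out. Chil3 had 6.64 and 6.23 in KO cut nerve and 10.02 and 7.08 in CTRL cut nerve, against 5.18 and 4.39 in KO uncut nerve and 6.43 and 5.80 in CTRL uncut nerve. Its change was 1.65 in KO nerve (limma adjusted p = 0.15) and 2.44 in CTRL nerve (limma adjusted p = 0.046), and the CTRL value was 0.96 without CTRL cut replicate 1 (adjusted p = 0.10). Nr4a1, a factor of patrolling monocytes that many other cells also induce, fell by 0.70 in KO and by 1.23 in CTRL nerve on the log2 scale, and was higher in KO than in CTRL cut nerve (10.65 and 10.70 in KO, against 9.93 and 9.91 in CTRL, limma adjusted p = 0.031, and over 0.05 in 6 of 8 fits with 1 array left out). Of 7 dendritic cell and MHC class II genes none rose and 1 fell in KO nerve, and 4 rose and 1 fell in CTRL nerve. Of all genes tested 18.1% rose and 17.8% fell in KO nerve, and 22.8% rose and 17.5% fell in CTRL nerve. With 1 array left out, 0 to 3 were called higher in KO nerve and 0 to 4 in CTRL nerve.

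Markers of the other cells of the nerve moved in both directions. Of all genes tested 18.1% were called higher and 17.8% lower in KO nerve, and 22.8% higher and 17.5% lower in CTRL nerve. The counts below, out of 5 or 6 genes, were not tested against these shares. Of 5 Schwann cell genes 2 rose and 2 fell in KO nerve and 1 rose and 2 fell in CTRL nerve, and Mbp, the myelin basic protein gene, fell by 1.35 in KO and by 2.38 in CTRL nerve on the log2 scale. Mbp was higher in KO than in CTRL cut nerve by 0.99 (limma adjusted p = 0.021, and called in 4 of 8 fits with 1 array left out). The summed Schwann cell signal was 20078 to 21794 in KO cut and 17743 to 19738 in CTRL cut nerve, against 32761 to 34686 in KO uncut and 35755 to 36586 in CTRL uncut nerve. That of the 10 macrophage genes was 20911 to 22712 in KO cut and 21627 to 21970 in CTRL cut nerve, against 6626 to 7432 in KO uncut and 6063 to 7581 in CTRL uncut nerve, so the genotypes overlapped in both states. Such sums rest mostly on their highest values, Mbp for Schwann cell genes in uncut nerve. For the macrophage genes in cut nerve these were Mpeg1, Csf1r and Cd68. S100b fell as Mbp did. Sox10 had means of 10.83 in KO cut and 11.03 in CTRL cut nerve, against 11.03 and 11.07 in uncut nerve. Cdh19 had 12.39 in KO cut and 12.79 in CTRL cut nerve, against 11.72 and 12.08 in uncut nerve. Of 5 fibroblast genes 2 rose in each genotype, of 5 endothelial genes 3 fell in KO nerve and none was called in CTRL nerve, and of 6 mast cell genes 2 fell in KO nerve and 1 rose in CTRL nerve. The endothelial calls were lost without KO cut replicate 1 or KO uncut replicate 2, the mast cell calls in KO nerve without KO cut replicate 2 or KO uncut replicate 1, and that in CTRL nerve without CTRL cut replicate 1 or CTRL uncut replicate 2. The part of these cells in the macrophage values was not tested.

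Likeness of profiles was read as the root mean square difference between centred values over the 8 arrays. Within the 10 genes Aif1 and Itgam lay nearest, 0.17 log2 units apart, and Csf1 and Cd68 farthest at 1.81. Over all genes tested, those nearest to Cx3cr1 were Gpr34 (0.17), Chrng (0.18) and Tnfrsf22 (0.19). Nearest to Ccr2 were Gpr34 (0.27), Smr2 (0.29) and Adgre4 (0.30). Gpr34 is a receptor of microglia and macrophages. The other genes near Cx3cr1 and Ccr2 were not sorted by cell type, and a near profile does not place genes in the same cells. The genes nearest to Csf1r were Bzw2, Akt1s1 and Atp13a2 (0.05 to 0.06), and those nearest to Csf1 were Gm20559, H2-D1 and Abcc1 (0.06 each). The median gene lay 0.37 from Csf1r, 0.23 from Csf1, 0.66 from Cx3cr1 and 0.74 from Ccr2.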

How the data were processed

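RNA of whole nerve segments was measured on 8 one-colour Affymetrix arrays. The authors deposited log2 values for 45101 probe sets, computed by RMA in the package affy per the submitters' processing notes, which name no version. RMA corrects the background, equalises arrays and summarises probes, which compresses differences of dim probe sets. The sources used here give no detection calls or scan dates, so batches were not tested. Nothing says whether replicate pools came from separate experiments, so p-values measure the spread between these arrays.

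Symbols came from the platform annotation (34958 probe sets with 1 symbol, 932 with several and 9211 with none; 34754 matched a current gene table by gene number and 0 changed). Probe sets with several symbols or none and 64 control probe sets named no gene. A gene was its brightest probe set among those above the array median on at least 2 arrays (12093 genes). With R 4.3.3 and limma 3.58.1, limma's linear model took 1 mean for each group over the 8 arrays (4 residual and 3.59 prior degrees of freedom), with 5 contrasts and Benjamini-Hochberg adjustment over all genes tested. The threshold was 0.05, two-sided. The model was tested on simulated data. Alternatives were filters, probe set summaries, scaling, array weights, a trended variance, the 4 arrays compared alone, the replicate number as a block and each array left out, for the list genes as an alternative chosen after seeing the data.

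The genes and lists were chosen with earlier results of these data known. The text names Jun, all 10 genes with their probe sets, members of the lists with the highest absolute change, and the nearest 3 genes of Csf1r, Csf1, Ccr2 and Cx3cr1. Genes named outside that rule (Adgre1, Spi1, Lyve1, Fcgr2b, Csn2, Ly96, S100a8, Cd3e, Nkg7 and other list members given for their role) were chosen after their values were seen. Promoter windows were taken from RefSeq (GRCm38.p6) and searched for 3 motifs.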

Additional observations from a re-analysis of the deposited data

Results flagged for a closer look

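Cd14 drew attention because both cut arrays lay below both uncut arrays in KO mice and above them in CTRL mice. In KO mice the nearest of these arrays stood at 8.85 (cut) and 8.87 (uncut), and the change there was not called. The change was -0.12 in KO nerve and 0.67 in CTRL nerve, and the difference of -0.79 did not pass over all genes (limma adjusted p = 0.22, with 0.13 to 0.61 over its alternatives). Among the 10 genes it was the only such case, and the share of all genes with this pattern was not counted.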

How the results depend on the processing

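Of the 10 genes, the number called after the cut was 7 in KO nerve and 8 in CTRL nerve. With 1 array left out it lay between 5 and 8 in KO nerve and between 7 and 9 in CTRL nerve. A filter at the 75th percentile gave 5 and 6, since Itgam and Cx3cr1 were not measured under it. Between genotypes, and for the interaction, 0 of the 10 were called under every alternative run. The replicate numbers are not stated to pair the samples. Deviations of same-numbered arrays correlated with 0.02 to 0.34 across genes, and with the replicate block 8 genes were called in KO nerve, Ccr2 added (adjusted p = 0.019), and 8 in CTRL nerve. Ccr2 was also called in KO nerve with only the 4 arrays compared (adjusted p = 0.0094) and without any single CTRL array (adjusted p = 0.037 to 0.049). Some values that did not pass changed sign. Without both cut arrays of higher Csn2 signal, an alternative chosen after seeing the data, Csf1 in KO nerve was 0.039, and the interaction was 0.079 for Aif1, 0.30 for Cd68 and -0.42 for Ccr2. Between genotypes in cut nerve the same alternative gave -0.90 for Ccr2, -0.65 for Cx3cr1, 0.45 for Cd68 and 0.30 for Aif1. Further quantile normalization turned Ptprc to 0.013 in cut nerve between genotypes and to 0.0051 for the interaction, and the mean of probe sets turned the interaction of Csf1 to -0.0053. With 1 array left out, Csf1 in KO nerve ran from -0.094 to 0.067. Between genotypes in cut nerve Aif1 ran from -0.10 to 0.20, Cd68 from -0.22 to 0.35, Cx3cr1 from -0.50 to 0.43, Ccr2 from -0.61 to 0.51 and Ptprc from -0.10 to 0.090. Between genotypes in uncut nerve Csf1r ran from -0.10 to 0.14, Itgam from -0.18 to 0.42, Cd68 from -0.19 to 0.49, Mpeg1 from -0.22 to 0.22, Cx3cr1 from -0.074 to 0.47, Ccr2 from -1.13 to 0.16 and Ptprc from -0.37 to 0.42. The interaction ran from -0.42 to 0.25 for Cd68, from -0.14 to 0.30 for Mpeg1, from -0.70 to 0.24 for Cx3cr1, from -0.21 to 1.08 for Ccr2 and from -0.43 to 0.36 for Ptprc. Counts over all genes moved by more than 1.5 times in some fits. Between genotypes in cut nerve 132 genes were called, 13 to 111 with 1 array left out, 31 with only the 4 arrays and 55 without both higher Csn2 arrays. The interaction gave 20, and 0 to 45 over all alternatives, and uncut nerve gave 0, and at most 9. After the cut in KO nerve 4348 were called, 2734 to 4260 with 1 array left out, 2782 without both higher Csn2 arrays and 6660 with probe sets as units, and in CTRL nerve 4877, and 7555 with probe sets as units.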
